A study of Mus musculus with 8 samples.

Results

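Spleen-only ATAC peaks are the autosomal peaks of the spleen regulatory T cell (Treg) list that share no base with any peak of the tumour Treg list. They were chosen by that rule alone, which uses the measured accessibility of 1 spleen and 1 tumour library, and they number 1929 of 12800 autosomal spleen peaks (15.1%), within a series of 40744 ATAC peaks in both lists. ATAC-seq marks open chromatin with a transposase. Both ATAC libraries came from wild-type (JMJD1CWT) C57BL/6 mice of 8 to 12 weeks. H3K9me2, dimethylation of lysine 9 of histone H3, was profiled by CUT&RUN, which cuts out antibody-bound chromatin for sequencing, in tumour Treg of 3 JMJD1CWT and 3 JMJD1CTregcKO samples of the same strain and age, in which the H3K9 demethylase gene Jmjd1c is knocked out conditionally in Treg (WT and cKO below). The driver of the knockout, the tumour model and the pooling of mice are not given in the sources used here, and all H3K9me2 libraries came from tumour, so none describes the mark in spleen.

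Treg are CD4 T cells that express Foxp3 and restrain immune responses. In lymphoid organs most of them are resting cells that recirculate with the help of Ccr7 and S1pr1 and express the transcription factors Tcf7, Bach2, Satb1 and Foxp1, whereas Treg in tumours are mostly activated effector cells. Open chromatin lies at promoters, which are often open in every cell type, and at distal enhancers, which differ more between cell states. H3K9me2 is a mark of silent chromatin.

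Each ATAC group is 1 library, so the peak rule has no replicate check, and a peak missing from the tumour list is not shown to be closed there. The spleen library held 11068821 tags and the tumour library 11293674. Per the file headers, spleen peaks were 869 bp wide with a threshold of 15 tags and 4.77% of tags in peaks, and tumour peaks were 322 bp wide with a threshold of 10 tags and 11.03% of tags in peaks. Foxp3, Cd4 and Cd3e, which define Treg, each had 1 spleen peak and 1, 1 and 2 tumour peaks within 2 kb of the gene. Ms4a1 (B cells), Csf1r, Lyz2 and Itgam (myeloid cells), Cd8a and Cd8b1 (CD8 T cells), Ncr1 (natural killer cells) and Gata1 (erythroid cells) had 0 spleen peaks, Klf1 (erythroid) had 1 shared peak, and Pax5 (B cells) had 1 spleen-only peak. Over the whole marker lists, a spleen peak lay within 2 kb of 6 of 15 B cell, 1 of 15 myeloid, 2 of 12 CD8 T and natural killer cell and 2 of 11 erythroid genes, against 14 of 18 Treg identity genes. Beside Pax5 the B cell genes were Bank1, Cd79a, Cr2, Btk and Pou2af1. Of 16 tumour, epithelial and stromal genes, 8 had a spleen peak within 2 kb. A tumour peak lay within 2 kb of 8 B cell, 7 myeloid, 6 CD8 T and natural killer cell and 3 erythroid genes. The same held for 6 tumour, epithelial and stromal and 17 Treg identity genes.

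Few spleen-only peaks reached a promoter. Of the 1929 peaks, 151 touched 185 promoter windows of 164 genes in the RefSeq promoter table (build GRCm38.p6, 250 bases before to 50 after a start). The 250 bases before the start are printed below, 5′ to 3′ on the strand of the gene, for 6 genes that are either among the peaks of highest signal or on a gene list. They are Socs1 (an inhibitor of cytokine receptor signalling), Eif1 (a factor of start codon selection), Satb1 (a chromatin organiser of T cells), Izumo1r (the folate receptor 4 gene, expressed in Treg), Cd247 (the zeta chain of the T cell receptor complex) and Fasl (the ligand of the death receptor Fas). Capitals mark matches, on either strand, to the motifs AP-1 (TGANTCA), TCF/LEF (CTTTGA), RUNX (TGTGGT), ETS (GGAAGT), KLF (CACACCC), FOX (TGTTTAC) and CRE (TGACGTCA).
Socs1: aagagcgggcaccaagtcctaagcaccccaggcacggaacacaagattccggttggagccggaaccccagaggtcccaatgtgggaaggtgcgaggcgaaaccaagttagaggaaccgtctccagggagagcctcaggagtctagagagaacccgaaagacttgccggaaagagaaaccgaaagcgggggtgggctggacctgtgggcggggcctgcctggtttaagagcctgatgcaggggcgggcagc
Eif1: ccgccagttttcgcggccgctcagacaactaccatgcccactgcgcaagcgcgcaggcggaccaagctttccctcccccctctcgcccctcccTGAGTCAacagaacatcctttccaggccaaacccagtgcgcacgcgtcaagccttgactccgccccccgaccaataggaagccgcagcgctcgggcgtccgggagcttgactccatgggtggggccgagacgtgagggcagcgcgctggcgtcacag
Satb1: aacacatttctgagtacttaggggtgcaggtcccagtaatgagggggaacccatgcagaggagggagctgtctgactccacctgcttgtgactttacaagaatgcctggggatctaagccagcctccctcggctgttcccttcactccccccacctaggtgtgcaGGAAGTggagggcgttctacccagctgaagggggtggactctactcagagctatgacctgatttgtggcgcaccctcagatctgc
Izumo1r: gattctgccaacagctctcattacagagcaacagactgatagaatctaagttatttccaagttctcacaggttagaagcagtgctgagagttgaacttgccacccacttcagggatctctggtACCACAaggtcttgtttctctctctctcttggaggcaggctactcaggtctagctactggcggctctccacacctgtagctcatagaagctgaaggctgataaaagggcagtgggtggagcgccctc
Cd247: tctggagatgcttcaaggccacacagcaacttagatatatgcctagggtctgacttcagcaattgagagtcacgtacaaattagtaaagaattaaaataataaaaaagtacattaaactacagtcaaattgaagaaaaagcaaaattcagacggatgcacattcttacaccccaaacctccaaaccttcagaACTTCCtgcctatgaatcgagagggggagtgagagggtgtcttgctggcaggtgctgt
Fasl: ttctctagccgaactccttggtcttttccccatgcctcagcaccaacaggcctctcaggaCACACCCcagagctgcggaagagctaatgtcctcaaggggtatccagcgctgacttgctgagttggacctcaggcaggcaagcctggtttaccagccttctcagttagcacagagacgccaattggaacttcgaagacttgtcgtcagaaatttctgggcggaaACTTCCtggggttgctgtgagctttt

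In GRCm38.p6 coordinates these stretches are chr16:10785537-10785786 (minus strand) for Socs1, chr11:100319699-100319948 (plus) for Eif1, chr17:51826589-51826838 (minus) for Satb1, chr9:14903768-14904017 (minus) for Izumo1r, chr1:165788431-165788680 (plus) for Cd247 and chr1:161788496-161788745 (minus) for Fasl. The spleen-only peak covered the whole stretch at Eif1, Satb1, Cd247 and Fasl and a part of it at Socs1 and Izumo1r. The ETS letters occurred once in the Satb1, Cd247 and Fasl stretches, the KLF letters once at Fasl, the RUNX letters once at Izumo1r and the AP-1 letters once at Eif1, and none of the 7 motifs occurred at Socs1. Across all 185 touched windows of 300 bases, 13.5% held the KLF letters, against 8.00% of all 31396 windows and 7.90% of the 7303 windows touched by a shared peak. The ETS letters were in 18.9% of windows touched by a spleen-only peak, 23.9% of all windows and 31.4% of those touched by a shared peak. RUNX letters stood in 16.8% of them, 16.7% of all and 12.0% of the windows at shared peaks. CRE letters stood in 1.08%, 1.83% and 4.23%, in the same order. The touched windows had a median of 58.3% G and C and 14 CpG, between all windows (53.0% and 7 CpG) and windows at shared peaks (61.7% and 23 CpG). These shares are descriptions of letters in a window, neighbouring starts share bases, and no test was made.

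Spleen-only peaks were weak. Since a spleen-only peak is chosen by its presence in one list and absence from the other, the following signal values describe the rule and carry no test. Signal is the authors' tag count per peak scaled to 10000000 tags. Its median was 17.2 in spleen-only peaks (quartiles 14.9 and 20.8, range 10.8 to 1153) and 29.4 in the 10871 spleen peaks that touch a tumour peak, called shared below. The peak score, in tags of the library itself, was under 20 in 1331 spleen-only peaks (69.0%) and in 21.3% of shared peaks, next to a calling threshold of 15. A score of 30 or more was found in 152 spleen-only peaks (7.88%) and in 49.6% of shared peaks. When the spleen list was split by score into 5 classes of equal size, the spleen-only share fell from 41.8% in the lowest class through 19.6%, 9.02% and 3.67% to 1.21% in the highest. Enrichment over the surrounding 10 kb had a median of 6.30-fold in spleen-only and 11.7-fold in shared peaks.

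**Figure D1:**
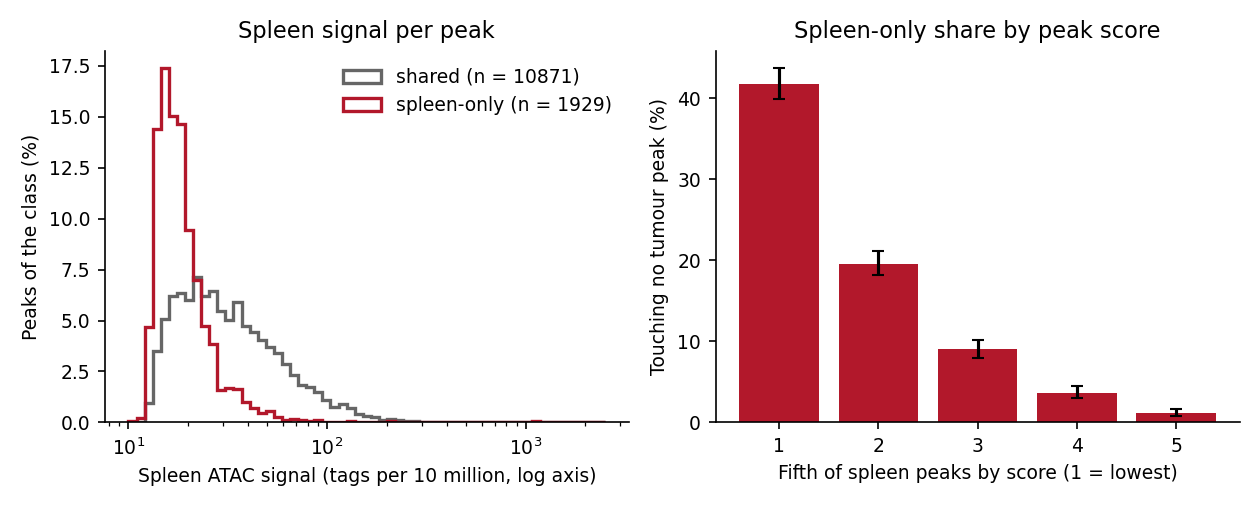
Left, distribution of spleen ATAC signal (tags per 10000000, log axis) over spleen-only and shared peaks, as percent of each class. Right, percent of spleen peaks that touch no tumour peak in each of 5 equal classes of the list by peak score, with 95% Wilson intervals of counting error, falling from 41.8% to 1.21%.

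The strongest spleen-only peaks mostly lay beside a tumour peak. Of the 20 with the highest signal, 17 had a tumour peak less than 1 kb away, against 321 of all 1929 (16.6%). Among the 152 peaks with a score of 30 or more, 78 (51.3%) had a tumour peak within that distance, against 10.5% of those with a score under 20. The peak with the highest signal (1153) lay on chromosome 17 at 39847383 to 39848251, over Rn18s-rs5, an 18S ribosomal RNA pseudogene, and a non-coding gene. It was enriched only 4.22-fold over its surroundings, which is near the 4-fold minimum, and ribosomal RNA sequence is repeated in the genome, so reads there cannot be placed with certainty. The next, with a signal of 201 on chromosome 8, touched the non-coding gene Gm6410 and was 123 bp from a tumour peak of signal 195.7.

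Of the 20 strongest, the peak at Socs1 (chromosome 16, 10784811 to 10785679) had a signal of 70.9 and was 648 bp from a tumour peak of signal 77. The peak inside Ikzf1, which encodes the lymphoid transcription factor Ikaros (chromosome 11, 11725894 to 11726762), had a signal of 52.4 and a gap of 11 bp to a tumour peak of signal 57.6. The 6th-ranked to 8th-ranked peaks were inside Trps1, a GATA-type repressor (78.6), inside Insig1, a sterol sensor (77.2), and nearest to the zinc-finger gene Zbtb10 (72.3), with gaps of 95, 94 and 28 bp. Other peaks of this group were inside Sap130, a Sin3A complex component (126.9), Mthfd1l, a mitochondrial folate enzyme (90.3), Klhl24, a ubiquitin ligase adaptor (87.2), the histone gene H4c8 (70.9), Abhd8 (67.8), Eipr1 (62.8), Csrnp1 (61.4), Eif1 (56.9) and Ibtk (53.8), or nearest to Lbh (58.7) and Igdcc3 (57.8), all within 1 kb of a tumour peak. Beside the ribosomal RNA peak, the 2 without a tumour peak within 1 kb were nearest to Fam43a (57.4) and to Sox4 (55.6), at gaps of 37756 and 38322 bp. At this distance from tumour peaks the strong peaks also included one inside Btla, which encodes an inhibitory receptor of lymphocytes (45.6, gap 26570 bp), one at the start of Atp1b1, a sodium pump subunit (37.9, gap 44038 bp), and one at the start of P2ry1, a nucleotide receptor (37, gap 340749 bp).

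Over all 1929 peaks the gap to the nearest tumour peak had a median of 20741 bp (quartiles 3249 and 112203 bp). It was under 100 bp in 113 peaks, from 100 to below 500 bp in 144, from 500 bp to below 1 kb in 64, 1 to 10 kb in 421, 10 to 100 kb in 668 and 100 kb or more in 519. The median spleen signal was 23 in the nearest of these classes and 16.3 in the farthest. At the edge of the rule, the 14 peaks with a gap under 10 bp had a median signal of 23.2 (range 13.6 to 70.9), and the 17 shared peaks with 1 to 10 bp of overlap had 23.5 (range 14.5 to 69.1). With tumour peaks widened by 1 kb on each side, 1608 remained spleen-only.

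**Figure D2:**
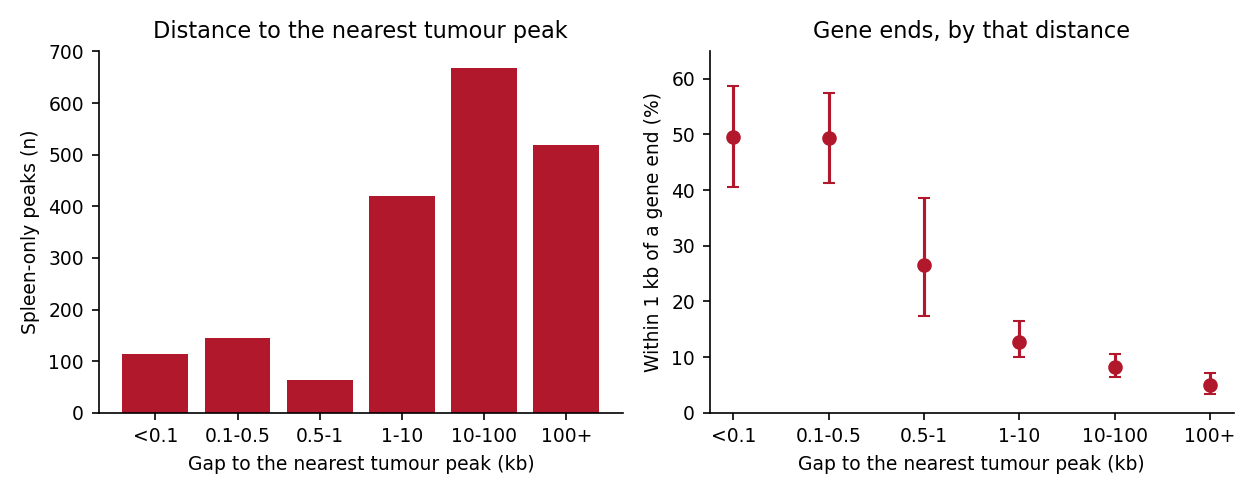
Left, number of spleen-only peaks by gap to the nearest tumour peak (kb), 113, 144, 64, 421, 668 and 519 from near to far. Right, percent of each gap class within 1 kb of an end of a protein-coding gene, with 95% Wilson intervals of counting error, falling from 49.6% to 5.01%.

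Spleen-only peaks lay near gene ends less often than shared and tumour-only peaks, and had fewer genes around them. The genome at large was not used as a baseline. Within 1 kb of either end of a protein-coding gene lay 279 of them (14.5%, 95% Wilson interval 13 to 16.1), against 56.4% of shared peaks (55.4 to 57.3) and 20.5% of the 16128 tumour-only peaks (19.8 to 21.1), which touch no spleen peak. Inside a gene and over 1 kb from its ends were 46.3%, 24.8% and 44.1%, in that order, and outside genes 39.2%, 18.9% and 35.5%. More than 100 kb from any protein-coding gene lay 290 spleen-only peaks (15%), 2.67% of shared and 4.41% of tumour-only peaks. The median number of protein-coding genes in the surrounding 1 Mb was 7, 12 and 11. The intervals cover counting error only, since each list comes from 1 library.

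The position was also compared within classes of score, a split chosen after seeing the data. Among spleen peaks with a score under 20, 10.4% of the 1331 spleen-only peaks (8.91 to 12.2) and 39.2% of the 2311 shared peaks (37.2 to 41.2) were within 1 kb of a gene end. With a score of 20 or more the shares were 23.4% of 598 (20.2 to 27) and 61.0% of 8560 (60 to 62). In narrower classes the spleen-only and shared shares were 8.36% and 36.7% at a score from 15 to below 17, 13.8% and 41.0% from 17 to below 20, 16.5% and 48.2% from 20 to below 25, 25.8% and 53.5% from 25 to below 30, and 34.6% and 61.3% from 30 to below 50. The intervals cover counting error only, with 1 library per list, and no test of these shares was made. Within the spleen-only peaks the share near a gene end was 49.6% where a tumour peak was under 100 bp away and 5.01% where none lay within 100 kb. The spleen-only share of spleen peaks ranged by chromosome from 5.83% on 19 and 7.27% on 11 to 19.3% on 1 and 3 and 21.2% on 18.

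**Figure D3:**
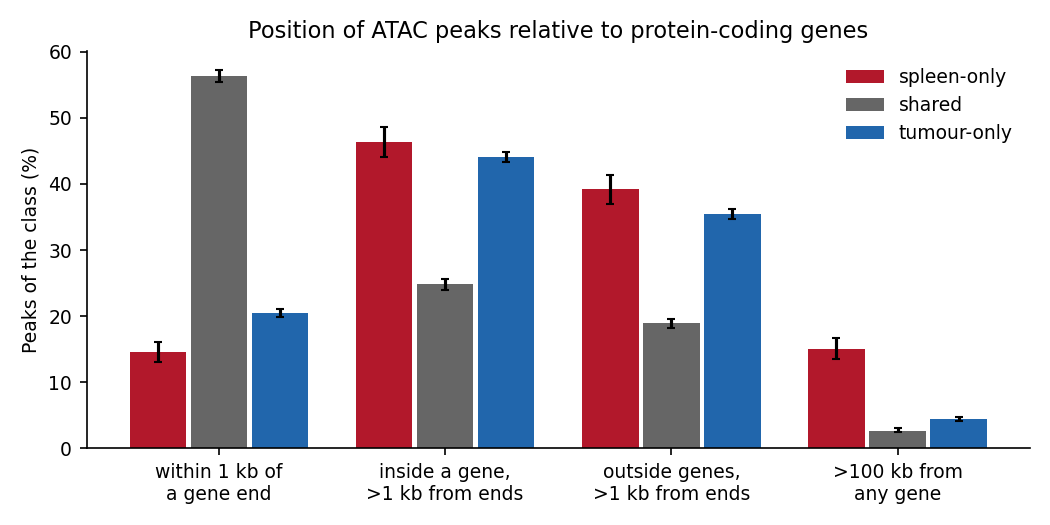
Percent of spleen-only (n = 1929), shared (n = 10871) and tumour-only (n = 16128) peaks in each position relative to protein-coding genes, with 95% Wilson intervals of counting error. Spleen-only peaks have the lowest share within 1 kb of a gene end, 14.5%, and the highest share over 100 kb from any gene, 15%.

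Spleen-only peaks were spread over many genes. A peak was assigned to each protein-coding gene it touched, or else to the nearest one, which does not show that it acts on that gene. At least 1 was assigned to 1607 of 20665 autosomal genes (7.78%), and 1349 of these had exactly 1. Another spleen-only peak lay within 10 kb of only 56. The 5 genes with the most were Adgrl2, an adhesion receptor of neurons and other cells (8), Immp2l, a mitochondrial inner membrane protease subunit (7), Tiam1, an activator of the GTPase Rac (6), Pde4d, a cyclic AMP phosphodiesterase (5), and Nrip1, a nuclear receptor corepressor (5). Immp2l spans 932 kb and Pde4d 1302 kb, and 7 of the 8 peaks of Adgrl2 and 3 of the 5 of Nrip1 were outside the gene. Tiam1 had all 6 inside its 358 kb span, with 5 shared and 4 tumour-only peaks.

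Genes of resting Treg and lymphoid homing had the most spleen-only peaks among the lists of lymphocyte genes. Of the 24 genes of that list, 14 had at least 1, with 23 of the 91 spleen peaks assigned to the list (25.3%), against 14% over all autosomal genes. They included Sox4, Ets1, Bcl2, Actn1, Ccr7, S1pr1, Foxp1, Dapl1, Satb1, Cd27, Bach2, Il6ra and Tcf7. Among the list's weak peaks, with a score under 20, 11 of 26 were spleen-only (42.3%, against 36.5% of all weak spleen peaks). Among its stronger peaks 12 of 65 were (18.5%, against 6.53%). All but 3 of the 23 lay at least 1 kb from a tumour peak, as did 1608 of all 1929 spleen-only peaks. The same list also had 90 tumour-only peaks, and 22 of its 24 genes had a tumour peak within 2 kb.

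The strongest of these was the peak assigned to Sox4 (chromosome 13, 28551312 to 28552180), a transcription factor of lymphocyte progenitors and activated cells, with a signal of 55.6 and 22.67-fold local enrichment. It lay 396739 bp from the gene and touched a non-coding gene. A peak inside Ets1, a transcription factor of resting lymphocytes (chromosome 9, 32740495 to 32741363), had a signal of 39.8. One inside Bcl2, which encodes a survival protein (chromosome 1, 106600531 to 106601399), had 33.9, and one 12501 bp from Actn1, encoding an actin crosslinker (chromosome 12, 80272921 to 80273789), had 33 with 33.35-fold enrichment. The peak 15597 bp from Ccr7, the receptor for lymph node homing chemokines (chromosome 11, 99170674 to 99171542), had 27.6. That 85843 bp from S1pr1, the receptor by which lymphocytes leave lymphoid organs (chromosome 3, 115800898 to 115801766), had 26.7. In the forkhead gene Foxp1 there were 3 (chromosome 6, from 99171622, 99309299 and 99374623), with signals of 26.2, 25.3 and 16.7. Satb1 also had 3, of which 1 stood at a listed start (19.9) and the others lay 70499 and 231067 bp from the gene (13.6 and 22.1). Peaks inside Tcf7 (13.6) and Bach2 (15.4 and 13.6) were near the calling threshold.

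**Figure D4:**
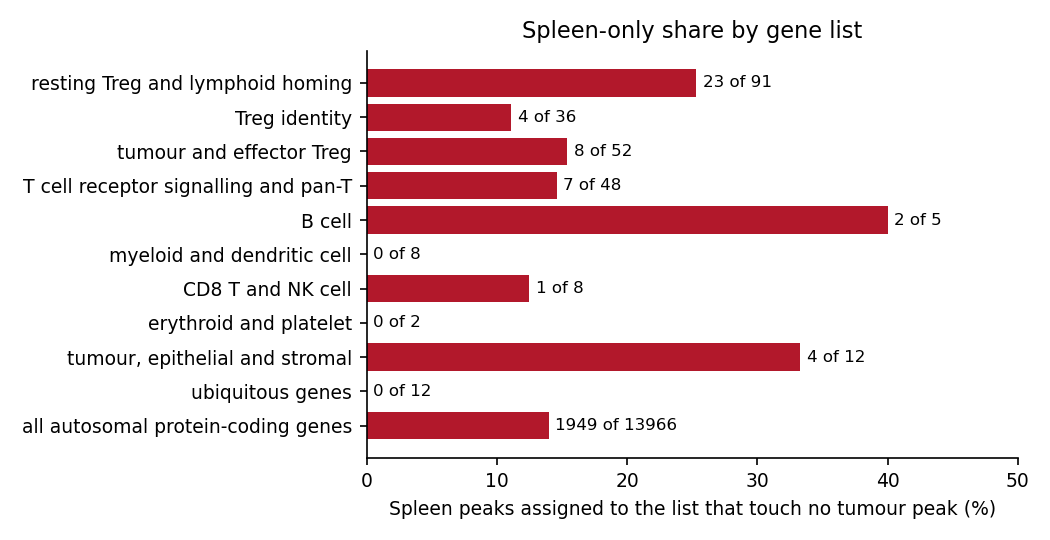
Percent of spleen peaks assigned to each gene list that touch no tumour peak, with the counts beside the bars. The resting Treg and lymphoid homing list stands at 25.3% (23 of 91) and all autosomal genes at 14%, and the B cell and the tumour, epithelial and stromal lists rest on 5 and 12 peaks.

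The other lists held fewer. Of 18 Treg identity genes, 4 had 1 spleen-only peak each, 11.1% of the list's spleen peaks: Izumo1r (26.7), Swap70 (14.9), Nt5e, which encodes the ectoenzyme CD73 (14.5), and Nrp1, a surface receptor of thymic Treg (12.2). Of 26 genes of tumour and effector Treg, 6 had 8 peaks (15.4%). They were Tnfrsf9, the costimulatory receptor 4-1BB (30.7), Nr4a1, a nuclear receptor induced by antigen (20.3), the transcription factors Gata3 (18.5), Tox (18.1, 15.8 and 13.1) and Maf (17.6), and Pdcd1, which encodes PD-1 (13.1). Of 20 genes of T cell receptor signalling, 7 had 1 each (14.6%), from 16.7 at Ptprc to 14.5 at Bcl11b, with Fyn, Cd247, Cd2, Lcp2 and Cd5 between. The 12 ubiquitous genes had 12 spleen peaks, of which 0 were spleen-only.

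Lists of other cell types held few spleen peaks, of which some were spleen-only. B cell genes had 2 (Pax5, 15.4, and Bank1, 14.9) on 15 genes, which is 40% of the 5 spleen peaks of the list. CD8 T and natural killer cell genes had 1 (Fasl, 17.2) on 12 genes, 1 of 8 spleen peaks, and the 15 myeloid and 11 erythroid genes 0 of 8 and 0 of 2. The 16 tumour, epithelial and stromal genes had 4, 33.3% of 12, inside Pdgfra (23.5) and near Dct (19), Col1a2 (15.4) and Cdh5 (14.9). A spleen peak within 2 kb was present at 6 of the 15 B cell genes, and the part of other cells in the sorted samples was not tested.

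H3K9me2 around spleen-only peaks was measured as the percent of bases under the authors' H3K9me2 peaks in the 5 kb centred on each ATAC peak. Replicates 1 to 3 had 4.53, 4.61 and 3.59% in cKO, against 2.50, 3.78 and 3.33% in WT. The groups overlapped, since 1 WT library stood above the lowest cKO library. In subsets by position they did not overlap near a gene end, with 2.97, 4.23 and 3.06% in cKO and 1.58, 2.85 and 2.43% in WT, or inside genes, with 4.41, 4.64 and 4% and 2.25, 3.61 and 3.53% (exact permutation p = 0.1 for each, n = 3 each). Outside genes they overlapped, with 5.25, 4.71 and 3.29% and 3.13, 4.32 and 3.42%. These subset values were not divided by the coverage of all autosomes. Libraries at shared peaks near a gene end did not overlap either, with 3.94, 4.69 and 3.61% in cKO and 1.52, 3.34 and 2.72% in WT (exact permutation p = 0.1). At shared peaks they overlapped inside genes (exact permutation p = 0.200) and not outside genes (exact permutation p = 0.1). Over all spleen-only peaks the means were 4.24% ± 0.568 in cKO and 3.20% ± 0.651 in WT (SD, n = 3 each), a difference of 1.04 percentage points with p = 0.200 by a two-sided exact permutation test, in which 3 against 3 cannot go below 0.1. WT replicate 1 stood lowest, and without it the difference was 0.686 (exact permutation p = 0.300). With the 6 H3K9me2 lists reduced to equal length by score it was 0.154 (exact permutation p = 0.8, n = 3 each), and with the stronger 50% of each list 0.448 (exact permutation p = 0.1, n = 3 each). On all autosomes the covered percent was 5.35, 4.47 and 3.65% in cKO and 3.81, 4.05 and 3.35% in WT, and after division by it the cKO and WT means at spleen-only peaks were 0.953 ± 0.0949 and 0.861 ± 0.180 (SD, n = 3 each, exact permutation p = 0.6). In the headers the tag directories are named differently for the 2 genotypes, and the cKO libraries 1 and 3 carry one knockout number between them, so handling that followed those names cannot be told apart from genotype. Whether replicates came from separate mice is not given, so the p-values measure the spread between these samples, which may be technical.

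At shared and tumour-only peaks the cKO mean was likewise above the WT mean. Around shared peaks the percent was 4.40 ± 0.534 in cKO and 2.83 ± 0.999 in WT (SD, n = 3 each), a difference of 1.57, with all 3 cKO libraries (4.30, 4.98 and 3.92%) above all 3 WT libraries (1.76, 3.73 and 3%) and the smallest p that the test allows (exact permutation p = 0.1). Around tumour-only peaks it was 4.14 ± 0.592 and 2.81 ± 0.903, a difference of 1.32, with overlapping libraries (exact permutation p = 0.200, n = 3 each). After division by the coverage of all autosomes, the libraries overlapped at shared peaks as well. The cKO and WT means there were then 0.997 ± 0.168 and 0.760 ± 0.259 (SD, n = 3 each, exact permutation p = 0.300). At tumour-only peaks they were 0.935 ± 0.159 and 0.754 ± 0.229 (SD, n = 3 each, exact permutation p = 0.400). The cKO minus WT difference was 0.531 percentage points smaller at spleen-only than at shared peaks, which the exact permutation test of the difference did not separate from the spread of the libraries (p = 0.200, n = 3 each). This value of -0.531 became -0.0867 with lists of equal length and -0.0572 with the stronger 50% of each list.

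Compared within each library, spleen-only peaks were not separated from the others in the 5 kb windows. The spleen-only minus shared difference was 0.229, -0.370 and -0.335 points in cKO and 0.742, 0.0492 and 0.327 in WT, with a mean of 0.107 ± 0.423 (SD, n = 6, two-sided exact sign-flip p = 0.5938). It changed sign to -0.0199 without WT replicate 1. Against tumour-only peaks the mean was 0.248 ± 0.308 (SD, n = 6, exact p = 0.1875), higher in 4 of 6 libraries. Among peaks inside genes, spleen-only peaks lay above tumour-only peaks in 6 of 6 libraries, by 0.487 ± 0.311 points (SD, n = 6, exact p = 0.031, the smallest that 6 libraries allow, and 0.3125 after adjustment over 10 such comparisons).

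The sign of the difference from shared peaks depended on how close to the peak it was taken. The size of both differences depended on how strong an H3K9me2 region was counted. Over the ATAC interval itself, spleen-only peaks were covered 0.949 points less than shared and 0.536 points less than tumour-only peaks (exact sign-flip p = 0.031 for each, n = 6). The tumour-only intervals were 322 bp wide and the others 869 bp. In 2 kb windows of equal width the differences were -0.398 from shared and 0.233 from tumour-only peaks (exact sign-flip p = 0.1250 and 0.2188, n = 6). When each H3K9me2 list was reduced to its stronger 50% by score, the 5 kb around spleen-only peaks was covered 0.934 points more than around shared and 0.869 points more than around tumour-only peaks (exact p = 0.031 for each, n = 6). The p-values of these alternative settings were not adjusted for the number of settings tried. In the profile by distance, the WT mean in the 1 kb on either side of the centre was 3.56 and 3.75% at spleen-only and 3.75 and 3.91% at shared peaks. From 1 to 2 kb away it was 3.01 and 2.76% at spleen-only and 2.17 and 2.18% at shared peaks. The cKO mean beside the centre was 4.42 and 4.58% at spleen-only and 5.09 and 5.15% at shared peaks. From 1 to 2 kb away the cKO mean was 3.72 and 3.93% at spleen-only and 3.86 and 3.76% at shared peaks. In both classes and both genotypes the mean was higher at the centre than 1 to 2 kb away, by less at spleen-only than at shared peaks, a difference that was not tested in this form.

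**Figure D5:**
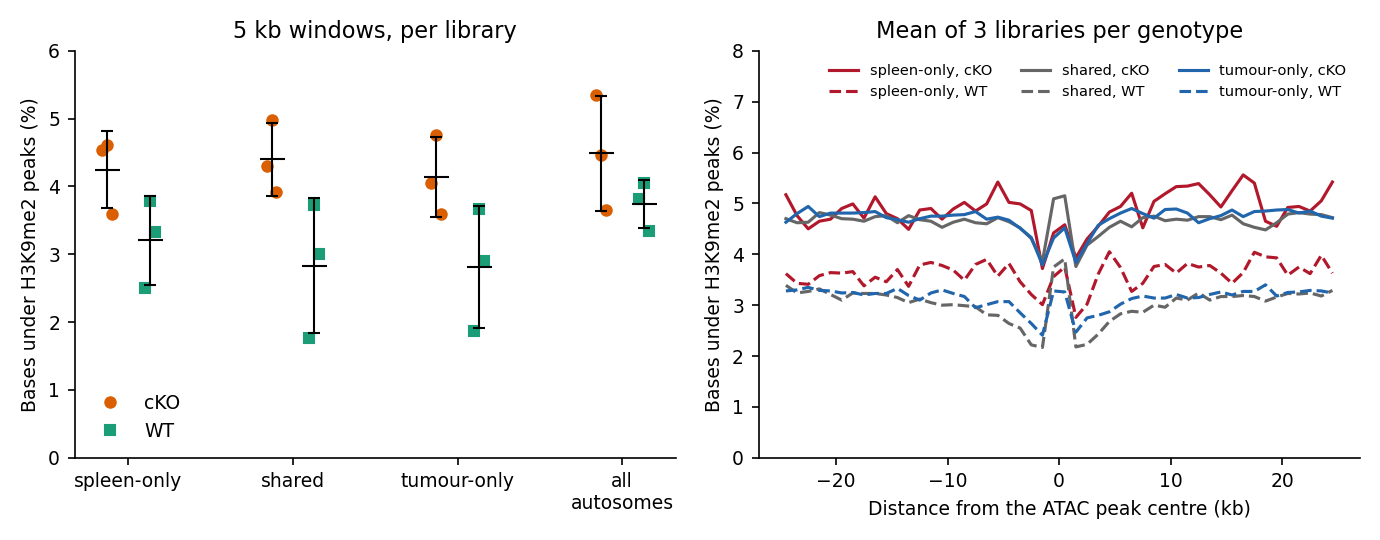
Left, percent of bases under H3K9me2 peaks in 5 kb windows around the 3 classes of ATAC peak and on all autosomes, 1 point per library, with mean and SD (n = 3 per genotype). Right, the mean percent by distance from the ATAC peak centre (kb) in cKO (solid) and WT (dashed). The cKO means lie above WT means in each class. In the left panel the libraries overlap at spleen-only and tumour-only peaks and on all autosomes.

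Single spleen-only peaks were rarely touched by the mark in more than 1 library. Replicates 1 to 3 had an H3K9me2 peak touching 230, 215 and 173 spleen-only peaks in cKO, against 109, 218 and 167 in WT, and 1149 (59.6%, beside 61.4% of all ATAC peaks) were touched in none of the 6. Of spleen-only peaks 8.97 to 11.9% were touched in a cKO library, against 11.4 to 14.5% of shared and 6.94 to 9.39% of tumour-only peaks, which are narrower. All 3 cKO and 0 WT libraries touched 3 peaks (0.156%, beside 0.187% of all ATAC peaks), inside Cacnb4, a calcium channel subunit (chromosome 2, 52570065 to 52570933), inside Tshr, the thyrotropin receptor (chromosome 12, 91428004 to 91428872), and 36840 bp from Saraf, a regulator of store-operated calcium entry (chromosome 8, 34207687 to 34208555). The reverse held for 1 peak (0.0518%, beside 0.0968% of all ATAC peaks) inside Fggy, a carbohydrate kinase gene (chromosome 4, 95924459 to 95925327). One peak, nearest to Nrip1 (chromosome 16, 76561488 to 76562356), was touched in all 6, as were 0.0277% of all ATAC peaks. These peaks were chosen after their values were seen.

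No spleen-only peak passed the test of H3K9me2 between cKO and WT. In 20 kb windows, in which 1 H3K9me2 peak of the commonest width (501 bp) covers 2.50%, limma tested 26618 ATAC peaks of all classes and called 0 at an adjusted p under 0.05 (0% called). Of the 1743 spleen-only peaks that passed the minimum mean coverage of 1%, 0 were called, with a lowest adjusted p of 0.566, and 186 were not tested. At an unadjusted p under 0.05, 118 tested spleen-only peaks (6.77%) were higher in cKO, beside 7.96% of all tested peaks, and 23 (1.32%) were lower, beside 0.601%. Higher in cKO were 55, 53 and 55 without WT replicates 1, 2 and 3 in turn. Over all 26618 tested peaks these counts were 892, 1202 and 863. Without cKO replicates 1, 2 and 3 in turn, 129, 135 and 171 spleen-only peaks were higher, beside 2575, 2265 and 3106 of all tested. Lower were 35, 21 and 28 without WT replicates 1, 2 and 3, and 28, 15 and 10 without cKO replicates 1, 2 and 3. Over all tested peaks the counts of both directions together were 1320, 1376 and 1088, and 2749, 2420 and 3226, in that order. With coverage divided by that of the autosomes, 99 were higher and 43 lower. Over all tested peaks, 1505 were then higher among 1823 of both directions. All 3 cKO libraries stood above all 3 WT libraries at 147 (8.43%, beside 11.0% of all tested) and below at 35 (2.01%, beside 1.05%). The median difference was 1.35 points at spleen-only and 1.67 at all tested peaks. In 50 kb windows limma called 1 peak in all, and it was spleen-only: nearest to Lyzl1, a lysozyme-like gene on chromosome 18, and 271459 bp from it, with 13.9, 6.54 and 14.1% in cKO and 0, 0 and 1.0% in WT (adjusted p = 0.0101), against 9.40, 0 and 13.1% and 0, 0 and 0% in 20 kb windows (limma adjusted p = 0.566).

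Among peaks whose cKO and WT libraries did not overlap, the 5 with the smallest p that were higher in cKO had 0% in all 3 WT libraries. The 20 kb around the peak nearest to Ofcc1 (chromosome 13, 40442317 to 40443185) had 14.1, 9.86 and 11.6% in cKO, and that inside Cntln, a centrosomal protein gene (chromosome 4, 85067490 to 85068358), had 8.08, 14.4 and 18.8%. Inside Fndc7 (chromosome 3, 108865345 to 108866213) it was 10.5, 10 and 10.6%. The peak 61383 bp from Lnpk, which shapes the endoplasmic reticulum (chromosome 2, 74452585 to 74453453), had 4.88, 18.6 and 21.9%, and that nearest to 4930519L02Rik (chromosome 3, 143124886 to 143125754) had 13.8, 7.88 and 8.26%. Their differences of 9.97 to 15.1 points had unadjusted limma p from 0.000787 to 0.00237. At 4930519L02Rik the difference fell from 9.97 points to 1.67 in 10 kb windows, at Lnpk from 15.1 to 7.68, and at Ofcc1 from 11.9 to 4.67 in 50 kb windows.

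The 5 that were lower in cKO included 2 with 0% in all 3 cKO libraries. These were inside Dpp10, a potassium channel partner (chromosome 1, 123516571 to 123517439), with 10.8, 6.93 and 7.70% in WT, and inside Gpc6, a glypican (chromosome 14, 117446541 to 117447409), with 16.7, 5.71 and 7.08%. Inside Suclg2, a subunit of succinyl-CoA ligase (chromosome 6, 95515446 to 95516314), cKO had 5.46, 3.19 and 5.01% and WT 19.3, 15.2 and 14.3%. The peak 99451 bp from Pxdc1 (chromosome 13, 34527521 to 34528389) had 6.82, 7.77 and 2.50% and 14.5, 16.1 and 22.8%. That 37816 bp from Gypc, a red cell membrane glycoprotein gene on chromosome 18, had 11.7, 0 and 0% and 14.4, 12.3 and 20.1%. Their unadjusted limma p ran from 0.00370 to 0.0152, and each had an adjusted p of 0.566, as had the 5 higher in cKO. The Suclg2 difference was -11.7 points in 20 kb and -2.73 in 50 kb windows, and that at Gypc was -4.09 in 10 kb windows.

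At the resting Treg list 22 of 23 spleen-only peaks were tested and 0 were called (limma, adjusted p under 0.05, beside 0% of all tested peaks). The cKO mean was above the WT mean at 18 of the 23, and over all spleen-only peaks at 1272 of 1929. Among tested peaks this held for 68.6% of spleen-only peaks and 74.0% of peaks of all classes. All 3 cKO libraries stood above all 3 WT at 1 of the 23, the S1pr1 peak, with 2.50, 7.51 and 5.20% in cKO and 0, 0 and 0% in WT (difference 5.07, SE 2.0, limma adjusted p = 0.566). None lay below. The peak of highest signal on that list, at Sox4, had 7.38, 13.5 and 9.40% in cKO and 16.0, 9.43 and 9.84% in WT, and that in Ets1 had 2.50, 3.38 and 0% and 5.01, 5.81 and 2.50%, so the libraries overlapped at both. At Ccr7 the stronger peak had 0, 11.4 and 3.18% in cKO and 0, 2.50 and 2.50% in WT.

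On the other lists groups without overlap were seen at 2 peaks, 1 with cKO above WT and 1 below. Over all tested peaks, all 3 cKO libraries stood above all 3 WT at 11.0% and below at 1.05%, so such groups are not particular to these lists. At the peak 9762 bp from Cd2, an adhesion receptor of T cells, cKO libraries had 8.96, 6.98 and 10% and each WT library 2.50%, which is 1 H3K9me2 peak of the commonest width (difference 6.15, SE 2.75, limma adjusted p = 0.566). At the Tox peak 463344 bp from the gene (chromosome 4, 7454901 to 7455769) cKO libraries were lower, with 5.74, 3.22 and 6.93% against 13, 9.87 and 8.23% (difference -5.08, SE 3.34, limma adjusted p = 0.607). The remaining peaks of these lists had overlapping libraries. At the Socs1 peak the values were 8.96, 3.24 and 3.28% in cKO and 5.01, 4.12 and 5.01% in WT, and at the Ikzf1 peak 3.73, 7.51 and 2.50% and 0, 0 and 2.50%.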

How the data were processed

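Members and gene lists were chosen with earlier results of these data known. Per the submitters' processing notes, the build was mm10 and the tools were HOMER, Bowtie2 2.4.2, SAMtools 1.11, Trim Galore 0.6.6, deepTools and Picard, in no stated order or role. Per the file headers, the authors called HOMER peaks in each library alone, with no pooling and no input. Per the file headers, the ATAC signal of a peak is its tag count scaled to 10000000 tags, and calls required a 4-fold enrichment over the local 10 kb, a local p-value of 1.00e-04 and an FDR of 0.001. The deposited score is in tags of the library, the deposited focus ratio is a fraction, and other deposited columns give positions and region sizes in bp (other unit). H3K9me2 libraries held 24774509 to 30313851 tags, and their deposited lists hold 24.4 to 43.9% of the peaks that their headers count, so they were filtered after calling in a way the headers do not state. Covered length therefore measures locally enriched regions, not the amount of the mark. The sources used here do not say whether ATAC reads were shifted.

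Overlaps and distances were computed in Python 3.11.15 with pandas 2.3.3. Gene spans came from a RefSeq table (GRCm38.p6) without strand, so both gene ends were used, and promoter starts came from a RefSeq promoter table that lists starts for 17492 of 21900 protein-coding genes. No genome sequence was used, so motifs were searched in promoter windows and not in the peaks. H3K9me2 peaks were merged within each library. Class means were compared with exact permutation or sign-flip tests. Single windows of 20 kb with a mean of 1% or more entered a limma fit (limma 3.58.1, R 4.3.3), with p-values adjusted by Benjamini-Hochberg over all ATAC peaks, and the fits were tested on simulated data. Of the simulated shifts the smaller were mostly missed, so a peak that was not called is not shown to be unchanged. Named peaks were the 20 of highest signal, those of list genes (the 8 of highest signal where a list had more), the 5 non-overlapping peaks of smallest p in each direction, and the 5 genes with the most peaks; a few others are named as examples after their values were seen, as Btla, Atp1b1 and P2ry1. Alternatives covered window size, list strength, scaling, members, replicates left out and a replicate block. Same-numbered cKO and WT libraries deviated together with correlations of 0.0380, 0.0109 and 0.0180 only, so the numbers were not treated as pairs. Peaks off the autosomes were left out of all comparisons, and a few genes that the rules would name are not reported here.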

Additional observations from a re-analysis of the deposited data

Results flagged for a closer look

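Outside the autosomes, 19 spleen peaks touched no tumour peak and entered no comparison. They were 15 of the 273 spleen peaks on X and 4 on Y and unplaced sequences. The headers of the ATAC lists name no control library. Groups of 3 H3K9me2 libraries were not tested for single outlying libraries.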

How the results depend on the processing

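The number of spleen-only peaks (1929) was 224 with the stronger 50% of the spleen list and 4005 against the stronger 50% of the tumour list, and stayed within 1.5 times with tumour peaks widened, spleen peaks narrowed or 100 bp of overlap required. The share near a gene end (14.5%) was 11.9% within 500 bp, 25.7% within 5 kb, 19.1% in the stronger 50% of spleen-only peaks and 8.4% in those at least 1 kb from tumour peaks. Chosen after seeing the data, listed starts gave 12.4% and peak centres 12.2%. The median spleen signal (17.2) was 16.7 at least 1 kb from tumour peaks. The spleen-only minus shared difference in H3K9me2 (0.107) became -0.949 over the peak itself, -0.398 in 2 kb windows, -2.03 as the percent of peaks touched and 0.934 with the stronger 50% of H3K9me2 peaks, and ranged from -0.0199 to 0.202 with 1 library left out, the lowest without WT replicate 1. The spleen-only minus tumour-only difference (0.248) became -0.536 over the peak itself, 0.869 with the stronger 50% of H3K9me2 peaks, 0.632 with lists of equal length and 2.26 as the percent of peaks touched, each of the 4 past the threshold. The values over the peak itself and as the percent touched compare spleen-only peaks of 869 bp with tumour-only peaks of 322 bp. In 2 kb windows of equal width this difference was 0.233. The cKO minus WT difference between spleen-only and shared peaks (-0.531) became 0.124 over the peak itself, -0.0867 with lists of equal length and -0.0572 with the stronger 50% of H3K9me2 peaks. Calls of single peaks (0) became 1 in 50 kb windows and were 0 in the other settings, including each library left out in turn. Spleen-only peaks with an unadjusted limma p under 0.05 numbered 141, against 72 in 10 kb and 266 in 50 kb windows and 74 to 181 with 1 library left out. Over all tested peaks such peaks numbered 2278, 1388, 4136 and 1088 to 3226, in the same order. The cause of these changes was not tested. With a replicate block, cKO minus WT at spleen-only peaks was 1.04 (exact sign-flip p = 0.2500, the smallest that 3 pairs allow) and 0 single peaks were called, and leaving out each library in turn gave 0.686 to 1.37. It was 0.154 with lists of equal length and 0.448 with the stronger 50% of H3K9me2 peaks. The 10 single peaks named for their H3K9me2 difference kept its sign in all 90 refits. They had been chosen for groups without overlap, so leaving out 1 library could not change the sign. Of spleen-only peaks 69.0% had scores under 20, near the threshold of 15, what depth adds was not tested, and 1 library per ATAC group gives no estimate of its error.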
